A study of Homo sapiens with 6 samples.

Results

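The 10 genes that make pigment or fill the melanosome, TYR, TYRP1, DCT, PMEL, MLANA, OCA2, SLC45A2, SLC24A5, GPR143 and TRPM1, were followed in SU-CCS-1 cells after knockdown of EWSR1::ATF1 (EA1). They were chosen by gene symbol as a group with roles in pigment synthesis, with earlier results of these data known. All 10 members have a row among the 18118 genes counted. SU-CCS-1 is an established cell line of clear cell sarcoma, a soft tissue tumor that carries EA1, the fusion of the RNA-binding protein gene EWSR1 with the transcription factor gene ATF1. Cells of this line were transfected with lipofectamine and either a negative control siRNA (siNeg1, labelled KD scramble control) or one of the siRNAs siEA1-1 (labelled KD EA1-1) and siEA1-2 (labelled KD EA1-2), and polyadenylated RNA was sequenced. Each of the 3 conditions had 2 libraries, numbered replicate 1 and replicate 2. All 6 libraries come from the same line, so the knockdown was seen in 1 tumor background, and nothing in the labels says that the replicates were separate cultures. The p values therefore measure the spread between libraries, which may be technical.

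Melanin is made in melanosomes, lysosome-related organelles of pigment cells. Tyrosinase, encoded by TYR, oxidizes tyrosine, and the related enzymes encoded by TYRP1 and DCT act later in the route to brown and black pigment. PMEL builds the amyloid fibrils on which melanin is laid down, MLANA assists the maturation of PMEL, and transporters and receptors of the melanosome set its pH and its number. In melanocytes the transcription factor MITF binds short sequences known as E-boxes and M-boxes near many of these genes, together with SOX10 and PAX3. Clear cell sarcoma shares this lineage program, and EA1 has been described as acting through the cAMP response element of the melanocyte promoter of MITF.

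To place the members beside the sequences these factors are known to read, the RefSeq promoters of GRCh38.p14 were searched, each 300 bases long and running from 250 bases before an annotated transcription start to 50 bases from it. Of the 10 members, 8 had a promoter in the table; PMEL and SLC45A2 were not analysed here. The motifs searched, on both strands, were the E-box CACGTG, the E-box CATGTG, the M-box TCATGTG, which contains CATGTG, the full cAMP response element TGACGTCA, its core TGACG, which the full element contains, and the AP1 site TGAGTCA. The promoters below are those of the enzymes TYR, TYRP1 and DCT, of OCA2, the member with the smallest fold, of TRPM1, the member with the largest, and of GPR143, whose replicates stood apart. Capitals mark CATGTG or TCATGTG, or the same read on the other strand (CACATG or CACATGA), and the sequences run 5′ to 3′ on the gene's strand.
TYR, chr11:89177625-89177924, plus strand: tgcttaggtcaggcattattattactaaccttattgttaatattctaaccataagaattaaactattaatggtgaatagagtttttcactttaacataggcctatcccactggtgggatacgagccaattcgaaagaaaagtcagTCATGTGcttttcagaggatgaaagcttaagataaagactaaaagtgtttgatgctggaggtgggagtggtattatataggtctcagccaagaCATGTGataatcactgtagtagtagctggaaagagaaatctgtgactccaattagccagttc
TYRP1, chr9:12693135-12693434, plus strand: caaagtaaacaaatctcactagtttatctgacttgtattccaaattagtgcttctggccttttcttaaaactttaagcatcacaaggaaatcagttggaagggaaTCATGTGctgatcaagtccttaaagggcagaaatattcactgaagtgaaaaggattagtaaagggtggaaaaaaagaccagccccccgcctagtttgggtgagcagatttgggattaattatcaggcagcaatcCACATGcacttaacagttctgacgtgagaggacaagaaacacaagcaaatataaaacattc
DCT, chr13:94479633-94479932, minus strand: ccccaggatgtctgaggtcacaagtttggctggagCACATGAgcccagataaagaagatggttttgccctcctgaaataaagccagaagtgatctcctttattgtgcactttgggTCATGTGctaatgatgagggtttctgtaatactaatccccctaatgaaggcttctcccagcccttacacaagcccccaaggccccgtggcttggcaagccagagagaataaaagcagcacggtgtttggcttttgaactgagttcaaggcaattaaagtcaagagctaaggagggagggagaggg
OCA2, chr15:28099266-28099565, minus strand: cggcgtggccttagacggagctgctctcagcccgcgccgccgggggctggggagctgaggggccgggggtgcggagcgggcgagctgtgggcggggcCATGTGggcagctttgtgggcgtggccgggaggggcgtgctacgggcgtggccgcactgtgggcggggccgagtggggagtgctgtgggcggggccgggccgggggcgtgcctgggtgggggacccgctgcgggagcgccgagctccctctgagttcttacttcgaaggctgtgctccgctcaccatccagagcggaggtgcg
TRPM1, chr15:31101676-31101975, minus strand: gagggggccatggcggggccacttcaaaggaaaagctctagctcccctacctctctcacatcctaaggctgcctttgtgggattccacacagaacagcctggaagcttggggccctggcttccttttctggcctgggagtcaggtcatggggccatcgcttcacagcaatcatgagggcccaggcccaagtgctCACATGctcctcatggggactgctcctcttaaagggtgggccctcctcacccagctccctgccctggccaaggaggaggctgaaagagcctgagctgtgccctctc
GPR143, chrX:9765798-9766097, minus strand: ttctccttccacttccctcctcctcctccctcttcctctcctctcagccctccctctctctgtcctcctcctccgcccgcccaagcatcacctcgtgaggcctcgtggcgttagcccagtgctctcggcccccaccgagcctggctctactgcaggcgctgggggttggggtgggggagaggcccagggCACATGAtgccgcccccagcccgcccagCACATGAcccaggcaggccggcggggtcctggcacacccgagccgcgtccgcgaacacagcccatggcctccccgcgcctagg

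CATGTG lay in the promoters of 7 of the 8 members, TYR, TYRP1, DCT, OCA2, SLC24A5, GPR143 and TRPM1, and in 11.1% of the 35116 promoters of the table. The longer TCATGTG lay in 5 of the 8 members, TYR, TYRP1, DCT, SLC24A5 and GPR143, and in 2.92% of all promoters. These members have 10 promoters. Counted by promoter, as the shares are, CATGTG lay in 8 of the 10 and TCATGTG in 5. In TYR the M-box began 105 bases before the start, with a further CATGTG 12 bases before it. In TYRP1 it began 145 bases before the start, and in DCT there was one on each strand, 215 and 135 bases before the start. GPR143 held it at 61 and 33 bases before the start, both on the other strand. OCA2 carried only the shorter CATGTG, 153 bases before the start, and the TRPM1 promoter printed carried it 56 bases before the start on the other strand. DCT and TRPM1 each had 2 annotated starts, and the upstream start of DCT carried no match. CACGTG, found in 7.26% of all promoters, was in none of the 8. The full cAMP response element TGACGTCA (1.85% of promoters) and the AP1 site TGAGTCA (4.95%) were also in none, and the core TGACG, present in 24.6% of promoters, was in 2, TYRP1 and MLANA. A match describes letters in the window, not a bound site. CATGTG and TCATGTG were searched as sequences of the kind that MITF is known to bind near many of these genes. No enrichment among the members is therefore read from the shares.

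**Figure D1:**
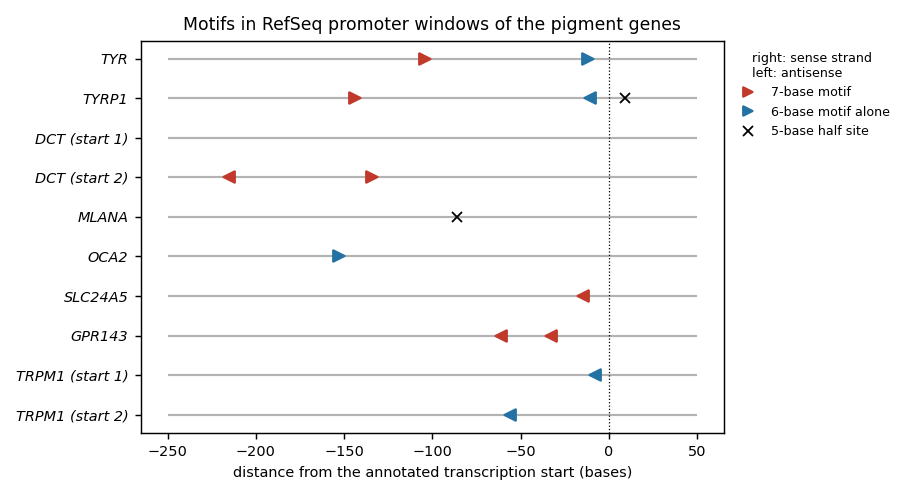
Positions of motifs in the RefSeq promoter windows (GRCh38.p14) of 8 members, in bases from the annotated transcription start, with DCT and TRPM1 shown for 2 starts each. Red arrowheads mark TCATGTG, blue arrowheads CATGTG without the leading T, and crosses TGACG; arrowheads point right on the gene's strand and left on the other strand. TYR, TYRP1, DCT (start 2), SLC24A5 and GPR143 carry a red arrowhead.

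The libraries held 5942808 to 7599305 counts, and 14571 genes passed the filter on low counts and were tested. At these depths 3 counts, taken as the floor, stood for 0.386 to 0.534 normalized CPM (counts scaled to a common library size), a limit that covers counting error only. As in the study, a positive log2FC is expression in siNeg1 over knockdown ("activated") and a negative one means more RNA after knockdown ("repressed"). ATF1, whose reads include those of the fusion, had 82.2 and 87.4 CPM in siNeg1, 21.2 and 20.3 with siEA1-1 and 21.7 and 22.3 with siEA1-2. These counts do not separate the fusion from ATF1 itself, and how far each fell was not tested. EWSR1 gave log2FC values of 0.11 and 0.04 and adjusted p values of 0.45 and 0.789 in edgeR's quasi-likelihood test. Of the lineage markers SOX10, MITF, S100B, PMEL, MLANA and ERBB3, all 6 passed the filter. MLANA had 4 and 0 counts in siNeg1 and passed only through its knockdown counts, so its passing says nothing about the control cells. PMEL and MLANA are also members of the group studied here. Keratinocyte markers summed to at most 24.1 CPM, nearly all KRT10, immune markers to at most 0.898 and endothelial markers to at most 2.95, while no skeletal muscle marker was analysed here.

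To ask how the pigment genes responded to the siRNAs against EA1, siNeg1 was compared with each of them. With either siRNA, 8 of the 9 members tested were repressed in this sense, their RNA rising after knockdown, and none was activated. SLC24A5 did not pass the filter and was not tested. Among all 14571 genes, 19.9% were repressed and 20.3% activated with siEA1-1, and 18.5% were repressed and 18.2% activated with siEA1-2. Of the members tested, 5 could pass the filter on their siNeg1 counts alone, and these 5, TYR, TYRP1, DCT, PMEL and OCA2, were all repressed with each siRNA, with a median log2FC of -2.08 for siEA1-1 and -2.44 for siEA1-2, against -0.024 and -0.00014 over all genes tested. The other 4, MLANA, SLC45A2, GPR143 and TRPM1, entered the test only through their knockdown counts, so a higher value there was a condition of being tested, and the total of 8 is not read as support. At an unadjusted p under 0.05 the edgeR test likewise found no member activated with either siRNA, and DESeq2 called none activated. Both siNeg1 libraries lay below all 4 knockdown libraries for each of the 5 members that could pass on siNeg1 counts, and for 28.1% of the genes tested. MLANA, SLC45A2 and TRPM1 showed the same, but they were tested only because of their knockdown counts, so this is not read as support. GPR143 overlapped, as did SLC24A5, which was not tested. More RNA in each cell and more cells that express a gene cannot be told apart in these bulk libraries.

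**Figure D2:**
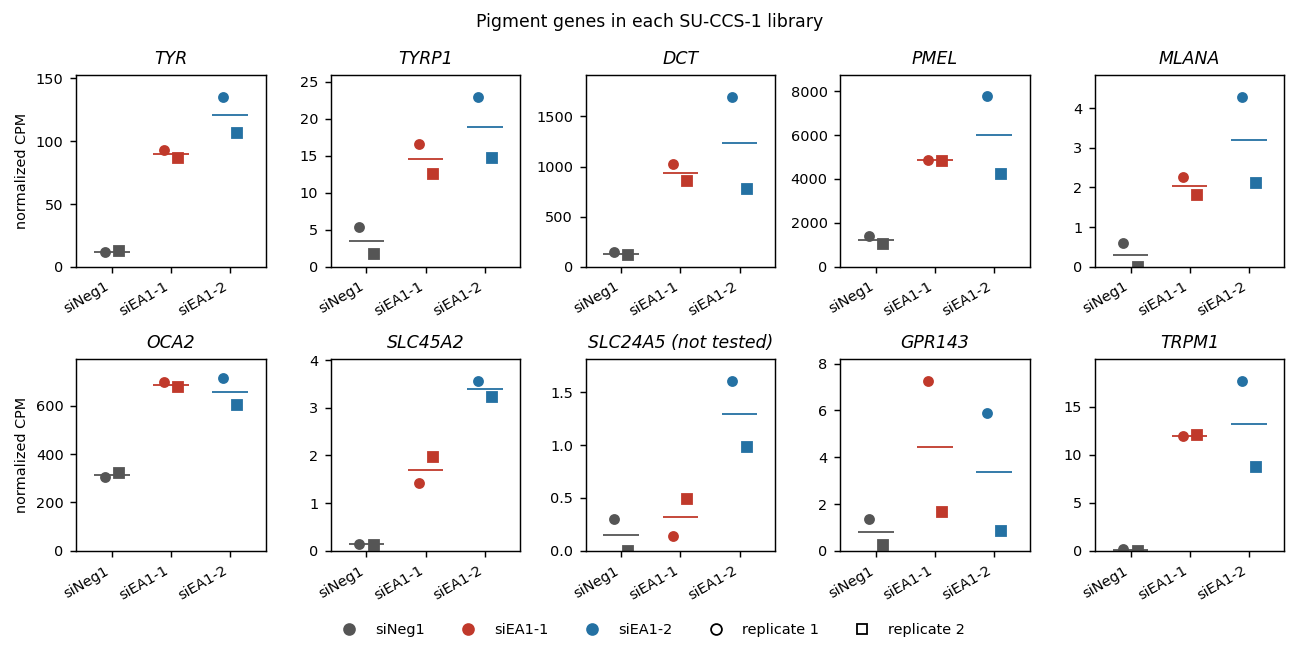
Normalized CPM of the 10 members in each of the 6 libraries, each panel with its own linear axis from 0; circles are replicate 1, squares replicate 2 and lines the mean of 2 libraries. Both gray siNeg1 points lie below all knockdown points in every panel except SLC24A5 and GPR143.

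TYR, the rate-limiting enzyme of melanin synthesis, lies on chromosome 11 from 89177875 to 89295759 (hg38, plus strand). It had 77 and 99 counts in siNeg1, 657 and 527 with siEA1-1 and 762 and 757 with siEA1-2. In normalized units these were 12.1 ± 0.851 CPM (SD, n = 2) in siNeg1, 90.1 ± 4.7 with siEA1-1 and 121 ± 20.8 with siEA1-2. Every knockdown library was thus far above both control libraries, and replicates lay close together. The log2FC was -2.89 (standard error 0.15; adjusted p 2.57e-07 from edgeR's quasi-likelihood test) for siEA1-1. With siEA1-2 it reached -3.31 (standard error 0.15; adjusted p 1.91e-07 from edgeR). A share of 8.54% of the 50-base words of the TYR transcript also occurs in its pseudogene TYRL, so some of its reads may have more than 1 possible origin.

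DCT, dopachrome tautomerase (chromosome 13 from 94436811 to 94479682, minus strand), rose by a similar factor from a higher base. Its counts were 972 and 894 in siNeg1, 7239 and 5170 with siEA1-1 and 9526 and 5556 with siEA1-2. The log2FC was -2.85 (standard error 0.29, adjusted p 1.64e-05 from edgeR) for siEA1-1 and -3.25 (standard error 0.30, adjusted p 9.51e-06 from edgeR) for siEA1-2. Within siEA1-2 the replicates were apart, at 1696 CPM in replicate 1 and 780 CPM in replicate 2, yet even the lower stood above 145 CPM, the higher of the control libraries; without replicate 1 the siEA1-2 log2FC was -2.56. No 50-base word of the DCT transcript recurs in another annotated transcript.

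TYRP1 (chromosome 9 from 12685439 to 12710285, plus strand), which helps to stabilize tyrosinase, was the lowest of the 3 enzymes. It had 36 and 13 counts in siNeg1, 117 and 76 with siEA1-1 and 129 and 105 with siEA1-2, or 5.39 and 1.67 CPM, 16.6 and 12.5 CPM, and 23.0 and 14.7 CPM. The siNeg1 libraries differed from each other by a factor of 3.22 and still did not reach the knockdown range. Its log2FC was -2.08 (standard error 0.42) for siEA1-1 and -2.44 (standard error 0.41) for siEA1-2, and edgeR's adjusted p was 0.00196 and 0.000747. The size depended on the control library: it was -3.11 and -3.47 without siNeg1 replicate 1 and -1.41 and -1.76 without siNeg1 replicate 2, and TYRP1 was called in each case. An antisense RNA, LURAP1L-AS1, shares 102 exon bases with TYRP1 and had at most 8 counts in a library.

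PMEL (chromosome 12 from 55954105 to 55973317, minus strand), the fibril protein, was the most abundant member by far. It had 9335 and 8113 counts in siNeg1, 34290 and 29232 with siEA1-1 and 43636 and 30209 with siEA1-2. It ranked 39th and 65th by count among all genes in the siNeg1 libraries, 6th in both siEA1-1 libraries and 4th and 7th with siEA1-2. The log2FC was -1.99 (standard error 0.24, adjusted p 5.58e-05 from edgeR) and -2.30 (standard error 0.24, adjusted p 2.77e-05 from edgeR). PMEL and CDK2, a cyclin-dependent kinase and itself a known MITF target, overlap on opposite strands by 89 exon bases, 2.42% of those of PMEL. CDK2 rose as well, with log2FC values of -1.03 and -1.31, and the part of shared reads in this was not tested. The libraries were made with a stranded kit, but the use of strand in counting is not given in the sources used here.

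MLANA, the melanosome antigen also known as MART-1 (chromosome 9 from 5890889 to 5910606, plus strand), was scarce in every library. Its counts were 4 and 0 in siNeg1, 16 and 11 with siEA1-1 and 24 and 15 with siEA1-2. Summed counts scaled to library size were 7.45 times those of siNeg1 (95% exact interval 2.6 to 29.3) for siEA1-1 and 11.1 times (3.99 to 42.6) for siEA1-2, with intervals that cover counting error only. The adjusted p values from edgeR were 0.0276 and 0.00907. The first depended on the libraries: without siNeg1 replicate 2, siEA1-1 replicate 1 or siEA1-1 replicate 2 it was 0.174, 0.13 and 0.0763. For siEA1-2 it was 0.0698 without siNeg1 replicate 2 and 0.0574 without siEA1-2 replicate 1, and the direction held throughout. A share of 4.08% of the 50-base words of its transcript also occurs in other genes.

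The transporters of the melanosome membrane spanned a wide range of levels. OCA2, an anion channel-like protein that raises melanosome pH (chromosome 15 from 27754875 to 28099315, minus strand), had 2032 and 2515 counts in siNeg1, 4893 and 4107 with siEA1-1 and 4017 and 4279 with siEA1-2. Its replicates were the closest of the abundant members, at 314 ± 13.6 CPM in siNeg1, 686 ± 13.8 with siEA1-1 and 658 ± 80.9 with siEA1-2 (SD, n = 2 each). The log2FC was -1.13 (standard error 0.11, adjusted p 1.51e-05 from edgeR) and -1.07 (standard error 0.11, adjusted p 2.93e-05 from edgeR), the smallest in size of the 9 members tested.

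SLC45A2, a transporter that acts with OCA2 on the pH of the melanosome (chromosome 5 from 33944623 to 33984693, minus strand), had 1 count in each siNeg1 library. It had 10 and 12 counts with siEA1-1 and 20 and 23 with siEA1-2. The ratio of scaled counts was 12.1 (95% exact interval 2.98 to 106) for siEA1-1 and 24.4 (6.36 to 208) for siEA1-2. The adjusted p values from edgeR were 0.00431 and 0.000548, and DESeq2 over the 4 libraries compared gave 0.0584 for siEA1-1.

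SLC24A5, a potassium-dependent exchanger of sodium for calcium (chromosome 15 from 48120990 to 48142672, plus strand), had 2 and 0 counts in siNeg1, 1 and 3 with siEA1-1 and 9 and 7 with siEA1-2. The control and siEA1-1 libraries were at or under the floor of 3 counts, and no fold is given between them. For siEA1-2 the ratio of scaled counts was 9.08 (95% exact interval 2.13 to 81.4), which compares the reads of these libraries and not the conditions. In addition, 60.22% of the 50-base words of its transcript are shared with MYEF2, a gene on the opposite strand with at most 64 counts in a library, so the origin of these few reads is uncertain.

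TRPM1, a cation channel of melanocytes whose gene hosts the microRNA MIR211, went from near absence to a clear signal (chromosome 15 from 31001065 to 31161160, minus strand). It had 1 and 0 counts in siNeg1, 84 and 73 with siEA1-1 and 99 and 62 with siEA1-2. In CPM the knockdown libraries stood at 11.95 and 12.02 with siEA1-1 and 17.62 and 8.70 with siEA1-2. The ratio of scaled counts was 173 (95% exact interval 30.6 to 6890) and 183 (32.3 to 7260), so wide because a single control read is the base. The adjusted p values from edgeR were 1.42e-05 and 1.56e-05, and the fitted log2FC values of -7.09 and -7.21 depend on the prior count and are no measure of size. An antisense gene shares 334 exon bases with TRPM1, and MIR211 itself was not analysed here.

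GPR143 (chromosome X from 9725346 to 9786297, minus strand) is a receptor of the melanosome membrane whose loss causes ocular albinism. It was the only member tested that was not called with either siRNA in the main fit, which had no replicate term. Its counts were 9 and 2 in siNeg1, 51 and 10 with siEA1-1 and 33 and 6 with siEA1-2. In each condition replicate 1 was thus several times replicate 2, by factors of 5.24, 4.4 and 6.97 in normalized CPM, and the groups overlapped. The log2FC was -2.52 (standard error 0.98, adjusted p 0.06 from edgeR) for siEA1-1 and -2.04 (standard error 1.02, adjusted p 0.143 from edgeR) for siEA1-2. With the replicate number as a block the log2FC was -2.48 and -1.98, and the adjusted p values of this edgeR fit, 0.00205 and 0.0121, passed the threshold for each siRNA. For siEA1-1, DESeq2 over 3 conditions (0.0401) and over 4 libraries (0.0308) and edgeR over 4 libraries (0.0122) also called GPR143; for siEA1-2, DESeq2 did not (0.114 and 0.162). Single libraries carried much of the size: without its own replicate 1, siEA1-1 gave -1.07 and siEA1-2 -0.10, and without its own replicate 2 they gave -3.18 and -2.87 (adjusted p 0.0313 and 0.0104 in edgeR). Without siNeg1 replicate 1 the values were -4.04 and -3.56, and without siNeg1 replicate 2 they were -1.70 and -1.21.

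**Figure D3:**
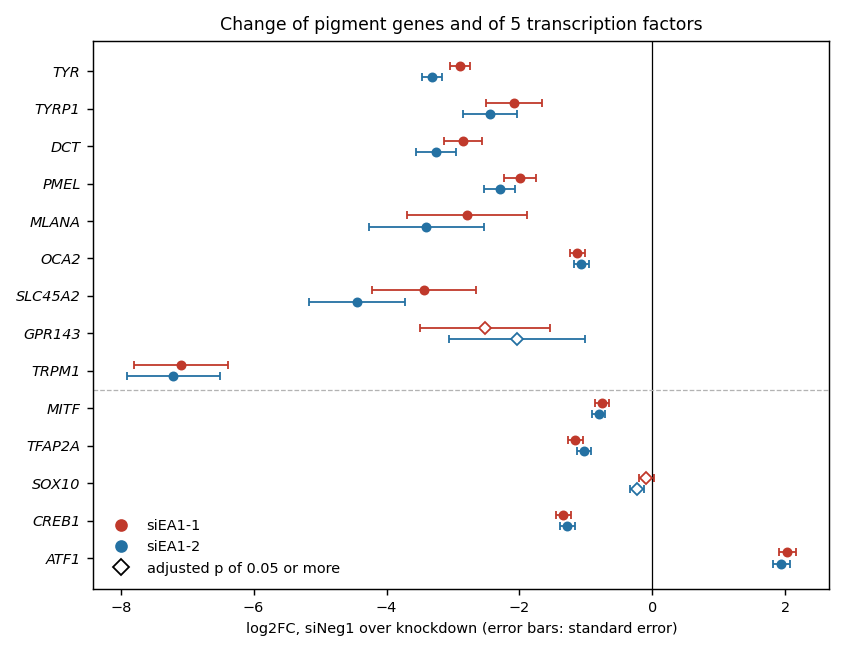
Fitted log2FC, siNeg1 over knockdown, of the 9 members tested and, under the dashed line, of 5 transcription factors, for siEA1-1 (red) and siEA1-2 (blue); error bars are standard errors and open diamonds have an adjusted p of 0.05 or more in edgeR. All 9 members lie left of 0, GPR143 and SOX10 are open, and ATF1 lies right of 0; the size for TRPM1, with 1 control count, depends on the prior count.

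Because same-numbered replicates deviated together, the term for replicate 1 against replicate 2 was also examined, a comparison chosen after the data were seen. GPR143 was the only one of the 9 members called, at a log2 ratio of 2.40 (standard error 0.43, adjusted p 0.0216 in edgeR's fit with the block), where 0.556% of all genes tested were called. DCT, TYRP1, PMEL and MLANA were also higher in replicate 1 in all 3 conditions, with log2 ratios of 0.59, 0.72, 0.44 and 0.94. Their adjusted p values were 0.0699, 0.208, 0.194 and 0.564 in the same edgeR fit, and MLANA had few counts in every library. OCA2 and SLC45A2 showed next to no such ratio, 0.07 and -0.09. What the replicate number stands for is not given in the labels.

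**Figure D4:**
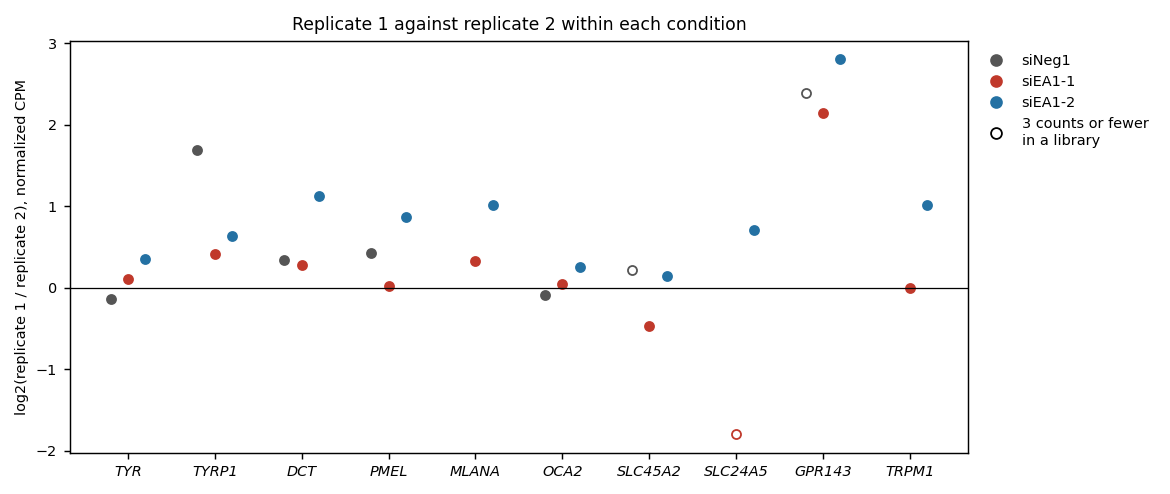
Log2 ratio of replicate 1 to replicate 2 in normalized CPM for each member within siNeg1 (gray), siEA1-1 (red) and siEA1-2 (blue); open circles have 3 counts or fewer in a library, and pairs with a 0 are left out. GPR143 lies above 2 in all 3 conditions, whereas TYR and OCA2 lie close to 0.

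The next question was whether both siRNAs moved the members to the same extent, and here the difference itself was tested. None of the 9 members differed between siEA1-1 and siEA1-2 at an adjusted p under 0.05 with edgeR, where 2.24% of all genes tested did. DESeq2 gave an adjusted p for 4 of them, TYR, DCT, PMEL and OCA2, and called none. At an unadjusted p under 0.05, 1 of the 9, TYR, differed in edgeR, against 17.0% of all genes tested. TYR was higher with siEA1-2 by a log2 difference of -0.42 (standard error 0.13) in the sign used here, with an adjusted p of 0.118 from edgeR and of 0.0454 with the replicate block. The largest difference by size was that of SLC45A2 (-1.0, standard error 0.49, adjusted p 0.334 from edgeR). OCA2 differed by 0.06 (standard error 0.11), GPR143 by 0.48 (standard error 0.82) and the remaining 5 members by -0.61 to -0.12. The siRNAs share the siNeg1 libraries, so their log2FC values are not independent of each other. The values for DCT and PMEL followed the siEA1-2 library that was kept. Without its replicate 2 the differences were -0.84 for DCT, -0.67 for PMEL and -0.58 for TYR, and without its replicate 1 they were 0.27, 0.19 and -0.24. Either way siEA1-2 is left with 1 library, which is assumed to vary like the other groups, so no difference is read from these fits.

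Per length of exon, the order of the members was largely kept while the whole range moved. In siNeg1 the mean levels were 332 CPM per kb for PMEL, 96.4 for OCA2, 17.3 for DCT and 4.68 for TYR, with no overlap between neighbours, and from TYRP1, at 0.945, down to TRPM1, at 0.0102, each neighbour's range overlapped with the next. With siEA1-1 the order of the first 4 was the same, at 1320, 211, 125 and 34.8 CPM per kb. With siEA1-2 OCA2 (202 CPM per kb) and DCT (164 CPM per kb) overlapped, and TRPM1 stood in place 6 of 10, from the last place in siNeg1. Together the 10 members took 0.187% and 0.153% (the latter with a 95% Wilson interval of 0.15 to 0.156) of all counts in siNeg1, 0.685% and 0.646% with siEA1-1 and 0.98% and 0.576% with siEA1-2. PMEL alone made up 69.7% to 74.9% of these counts, so this share is mostly a readout of PMEL.

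Log2 levels over the 6 libraries were compared by Pearson correlation, as a description over points that share 3 conditions. Among the 5 members that could pass the filter on siNeg1 counts, r ran from 0.893 (TYRP1 with OCA2) to 0.997 (DCT with PMEL). MLANA, SLC45A2, GPR143 and TRPM1 were tested only because of their knockdown counts, so correlations with them are not read as support. These included 0.997 for TYRP1 with MLANA and the lowest, 0.529, for SLC45A2 with GPR143. A rise in all 4 knockdown libraries over both siNeg1 libraries was common, at 28.1% of the genes tested. Of all genes tested, those most like TYR were UBB, GALNT3 and NRP2 (r from 0.9991 to 0.9996), and those most like DCT were ADAM10, CHCHD6 and RENBP (r from 0.9987 to 0.999). PMEL was most like SDCBP, RENBP and PML (r from 0.9981 to 0.9984). TRPM1 was most like MYO18A, SNAI2 and STK32A (r from 0.9993 to 0.9999), and OCA2 most like EDNRB, PLS3 and BAMBI (r from 0.9988 to 0.9989). SLC45A2 was most like LATS2, PTPRK and HEXA-AS1 (r from 0.9981 to 0.9989), and TYRP1 and MLANA had each other among their nearest 3, beside TMEM9B for both, PLCG1 for TYRP1 and UQCR10 for MLANA (r from 0.9955 to 0.9971). GPR143 stood farthest from other genes, with ACAA1, ALDH6A1 and GJA3 as its nearest (r from 0.9805 to 0.9926).

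The genes that control pigment genes moved unevenly. This list and those that follow were written with earlier results of these data known. Of 29 regulators listed, 23 were tested. With siEA1-1, 10 were repressed and 4 activated, and with siEA1-2, 10 were repressed and 3 activated, with medians of -0.32 and -0.31. Among all genes tested, 19.9% were repressed and 20.3% activated with siEA1-1, and 18.5% and 18.2% with siEA1-2. The medians over all genes were -0.024 and -0.00014. MITF, the central transcription factor of melanocytes, had 636 and 671 CPM in siNeg1, 1080 and 1130 with siEA1-1 and 1170 and 1120 with siEA1-2. Its log2FC was -0.76 (standard error 0.10, adjusted p 0.000149 from edgeR) and -0.81 (standard error 0.10, adjusted p 0.000113 from edgeR), a clear rise. In size it was smaller than the rises of TYR, TYRP1, DCT, PMEL and OCA2, but the difference from them was not tested. The counts of MITF join all its promoters and isoforms.

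Other regulators rose more. EDNRB, the endothelin receptor of melanocyte precursors, had log2FC values of -2.73 and -2.57, SOX5 of -2.23 and -2.22, the MITF relative TFEB of -1.48 and -1.77, CREB1, a CREB family factor akin to ATF1, of -1.34 and -1.28, and TFAP2A, which acts with MITF on pigment genes, of -1.16 and -1.03. The SOX5 values rest on 6 and 17 counts in siNeg1 (standard error 0.43 with each siRNA), which alone could not pass the filter. SOX10, a neural crest factor that activates MITF and DCT, had log2FC values of -0.09 and -0.23 (edgeR's adjusted p 0.522 and 0.125), and so showed no detectable change. Activated with each siRNA were IRF4, a partner of MITF at the TYR enhancer (1.01 and 0.54), HIVEP2 (0.72 and 0.67) and POU3F2, a neural factor described as a repressor of MITF (0.67 and 0.67). POU3F2 was not called with either siRNA without siNeg1 replicate 1 (adjusted p 0.0913 and 0.104 in edgeR), with siEA1-1 without its replicate 2 (0.0755) or with siEA1-2 without its replicate 2 (0.0518), and TFEB was not called with siEA1-1 without siNeg1 replicate 2 (0.084) or siEA1-1 replicate 2 (0.0908). MC1R, the melanocortin receptor that drives the switch to brown-black pigment, went the other way from the enzymes, with log2FC values of 1.87 (adjusted p 0.033) and 1.67 (adjusted p 0.0534; 0.0404 with the replicate block) from edgeR. MC1R rested on 21 and 20 counts in siNeg1 and 3 to 8 counts in the knockdown libraries, and DESeq2 gave adjusted p values of 0.105 and 0.123 for siEA1-1, which edgeR also did not call without any 1 of the siNeg1 or siEA1-1 libraries (0.0903 to 0.186). For siEA1-2, MC1R was called without siEA1-2 replicate 1 (2.73, adjusted p 0.0384 in edgeR). LEF1, a Wnt pathway factor, had log2FC values of 0.09 and 1.38 (edgeR's adjusted p 0.924 and 0.126, the second 0.0384 with the replicate block and 0.0069, at a log2FC of 3.15, without siEA1-2 replicate 1). PAX3 was not analysed here.

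The machinery that builds and moves melanosomes rose in part. Of 45 genes tested, 21 were repressed and 2 activated with siEA1-1, and 22 were repressed and 2 activated with siEA1-2. The medians were -0.31 and -0.37, and 19 genes were repressed with both. Over all genes tested, 19.9% and 18.5% were repressed and 20.3% and 18.2% activated with siEA1-1 and siEA1-2, with medians of -0.024 and -0.00014. The 4 with the largest averaged log2FC were SYTL2 (-2.48 and -2.95), MYO5A (-2.16 and -2.48), RAB38 (-2.20 and -2.41) and MLPH (-2.20 and -2.29). SYTL2 had only 5 and 10 counts in siNeg1, with standard errors of 0.51 and 0.5, and could not pass the filter on its siNeg1 counts alone. MYO5A and MLPH are the motor and the adaptor that carry melanosomes along actin, SYTL2 binds the same Rab as MLPH, and RAB38 directs tyrosinase and TYRP1 to the melanosome. MYO5A, for example, had 190.0 and 189 CPM in siNeg1 and 832 to 1220 CPM in the 4 knockdown libraries. No gene of this list was activated with both siRNAs.

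Of 22 other known targets of MITF tested, from 23 listed, 14 were repressed and 3 activated with siEA1-1, and 15 were repressed and 2 activated with siEA1-2. The medians were -0.67 and -0.87, against -0.024 and -0.00014 over all genes tested. Repressed genes made up 19.9% and 18.5% of all genes tested with siEA1-1 and siEA1-2, and activated genes 20.3% and 18.2%. Among the larger rises were those of GREB1 (-1.67 and -1.98), ASAH1, the acid ceramidase (-1.37 and -1.95), and the kinase gene DAPK1 (-1.61 and -1.37). DIAPH1, a formin of the actin cytoskeleton (0.71 and 0.57), and IRF4, which is also among the regulators, were activated with each siRNA. A further gene of this list, QDPR, is also in the next.

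Genes for the supply of tyrosine and of tetrahydrobiopterin, the cofactor for making tyrosine from phenylalanine, moved in both directions. Of 12 tested, 4 were repressed and 2 activated with siEA1-1, and 5 were repressed and 1 activated with siEA1-2. The medians were -0.14 and -0.12, against -0.024 and -0.00014 over all genes tested. Shares over all genes were 19.9% and 18.5% repressed and 20.3% and 18.2% activated with siEA1-1 and siEA1-2. The aromatic amino acid transporter SLC16A10 rose (-2.01 and -2.49), as did SLC7A5, the large neutral amino acid transporter (-0.69 and -0.95), and MIF, which can act on dopachrome-like substrates (-0.63 and -0.45, the latter not called without siNeg1 replicate 1, adjusted p 0.0667). SLC3A2, the partner of SLC7A5, had log2FC values of -0.35 and -0.56; the first was no longer called by edgeR without siNeg1 replicate 2 (-0.18, adjusted p 0.392), siEA1-1 replicate 1 (0.126) or siEA1-1 replicate 2 (0.161), and the second without siNeg1 replicate 2 (0.0746). GCH1, the first enzyme of tetrahydrobiopterin synthesis, fell after knockdown (1.66 and 1.91), from 17.1 ± 1.1 CPM in siNeg1 to 5.48 ± 2.73 with siEA1-1 and 4.54 ± 0.129 with siEA1-2 (SD, n = 2 each).

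**Figure D5:**
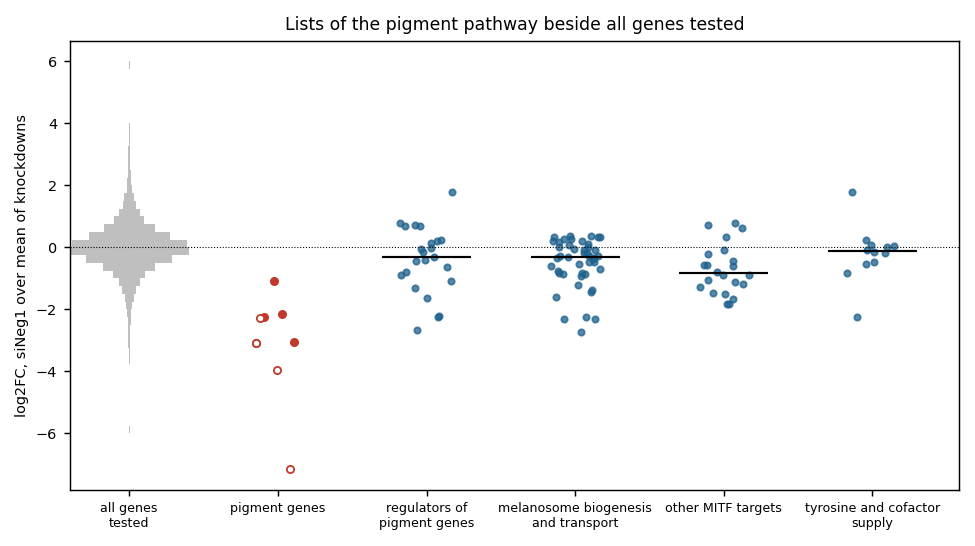
Log2FC of siNeg1 over the mean of both knockdowns for each gene of the 4 lists and for the 9 pigment genes tested, beside a histogram of all 14571 genes tested in gray; black lines are list medians, and open red circles are pigment genes that passed the filter only through knockdown libraries. All pigment genes lie below 0, and the other lists spread to both sides of it.

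Markers of Schwann cells, the other neural crest lineage near this tumor, rose in the same libraries. All 6 listed were tested and they summed to 703 to 757 CPM in siNeg1, 3550 to 3730 with siEA1-1 and 2770 to 3760 with siEA1-2. With each siRNA 4 of the 6 were repressed and 1 activated. Among all genes tested, 19.9% and 18.5% were repressed and 20.3% and 18.2% activated with siEA1-1 and siEA1-2. The myelin gene MBP stood at 156 to 162 CPM in siNeg1 and at 686 to 1050 CPM with knockdown, and CDH19 moved the other way, with log2FC values of 0.80 and 1.22. Both were singled out after their values were seen. The part of these genes in the rise of the pigment genes was not tested.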

How the data were processed

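Poly(A) RNA-seq of 6 SU-CCS-1 libraries was used. The authors aligned reads to hg38 with BWA-MEM, which is not splice-aware, tallied reads per gene with featureCounts 1.6.3 (version per the submitters' processing notes) and deposited the raw counts of each library, neither normalized nor pooled. Annotation and strand setting of the counting are not given in the sources used here. GENCODE release 44, which holds 18063 of the 18118 identifiers, was the source of coordinates, exon lengths and overlaps.

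The counts were filtered with filterByExpr (grouped by condition, with a minimum count of 10 and total of 15), scaled by TMM and fitted as 3 conditions with the quasi-likelihood model of edgeR 4.0.16 (R 4.3.3), with Benjamini-Hochberg adjustment over 14571 genes and calls at an adjusted p under 0.05. Standard errors come from the F statistic. CPM are counts over TMM-scaled library sizes, and log2 CPM for correlations used a prior count of 2. The biological coefficient of variation was 0.109. The fits were tested on simulated counts with the same spread for every gene, in which only genes above a minimum total count were changed. That simulation does not cover the scarce members MLANA, SLC45A2 and GPR143. Intervals are at 95%, exact for count ratios and Wilson for shares (Python 3.11.15, scipy 1.17.1).

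The members and the gene lists were chosen with earlier results of these data known. Named beside the members are ATF1, EWSR1, MITF, SOX10, PAX3, TFAP2A, LEF1 and MC1R, per list and direction up to 4 genes with the largest averaged log2FC among those called with each siRNA, and the 3 genes most like each member tested. CDK2 was named for its overlap with PMEL. Some genes that these rules name are not reported here. 

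Conditions and replicate numbers come from the labels, which list siEA1-1 and siEA1-2, whereas the methods describe a single siRNA against EA1. Within conditions, libraries of the same number deviated together, with correlations of 0.13 (siNeg1 and siEA1-1), 0.199 (siNeg1 and siEA1-2) and 0.144 (both siEA1). The main fit had no replicate term, and a pairing by number was used only in the replicate block. Alternatives were the replicate block, each library left out, RLE scaling, no filter, a minimum of 10 counts in all libraries, DESeq2 1.42.0, and either tool over only the 4 libraries compared.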

Additional observations from a re-analysis of the deposited data

How the results depend on the processing

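Of 224 estimates for the 9 members against siNeg1 under the alternatives, 207 stayed on their side of the threshold, 10 gained and 7 lost a call, and none changed direction. Requiring at least 10 counts in every library left 5 members to be repressed with siEA1-1 and 5 with siEA1-2, against 8 each, because MLANA, SLC45A2 and TRPM1 were no longer tested. The number of members that differed between the siRNAs was 1 with the replicate block (TYR) and ranged from 0 to 3 when single libraries were left out, the highest without siEA1-2 replicate 2, where 1 library is left and 788 of 15419 genes (5.11%) differed. Regulators called with siEA1-1 ranged from 9 to 15 when single libraries were left out, against 14, the lowest without siEA1-1 replicate 2. Over all genes, 1782 were repressed with siEA1-2 by DESeq2 on the 4 libraries compared, against 2702, and 853 differed between the siRNAs with the block and 176 by edgeR on 4 libraries, against 326; with single libraries left out, the last number ranged from 33 to 788, and the repressed genes went down to 1892 (siEA1-1) and 1767 (siEA1-2) without siNeg1 replicate 2. Among the genes named, the block further changed the calls of the difference between siRNAs for IRF4, ASAH1 and SLC16A10 (adjusted p 0.0134, 0.0178 and 0.0488 in edgeR); beside these and the calls given above for TYR, GPR143, LEF1 and MC1R it changed no other call. Depth limits MLANA, SLC45A2, SLC24A5 and TRPM1, which had 0 to 4 counts in each siNeg1 library.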
